A study of Homo sapiens with 12 samples.

Results

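The epithelial-mesenchymal transition (EMT) genes described here are 10 genes matched by name in a table of RNA levels: the transcription factors SNAI1, SNAI2, ZEB1, ZEB2 and TWIST1, the epithelial genes CDH1 and EPCAM, and the mesenchymal genes VIM, CDH2 and FN1. Of the 10, 8 were among the 25733 genes of the table, and TWIST1 and CDH2 were not analysed here. A mean of at least 1 FPKM over the 12 libraries was reached by 6 of the 8, which were tested together with all 12341 genes at that level, while ZEB1 and ZEB2 had a mean under 1. FPKM is fragments per kilobase of exon, divided by a total for each library, so levels can be compared between genes per length.

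The data are bulk RNA-seq of HCT116, a human colorectal cancer cell line that is commonly described as carrying inactivating mutations in TGFBR2, the type II TGF-β receptor. The 4 groups had 3 libraries each: untreated control cells, cells given 200 pM TGF-β for 1 h, cells given 10 mM NH4Cl for 24 h, and cells given 10 mM NH4Cl for 23 h and 200 pM TGF-β for 1 h. Reads assigned to genes ranged from 15298508 to 16700597 in the control libraries, 14830829 to 18191998 with TGF-β, 14931020 to 15880031 with NH4Cl and 14807630 to 17620222 with both. The comparisons ask what ammonium and TGF-β, alone and together, do to transcripts in these cells, and those against control share the same 3 control libraries. Whether the replicates of a group were separate cultures is not stated, so the p-values measure a spread between libraries that may be technical.

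In EMT, epithelial cells that adhere through E-cadherin lose these contacts and take on the cytoskeleton, the matrix and the motility of mesenchymal cells. Factors of the SNAI, ZEB and TWIST families bind the CDH1 promoter and repress it, and TGF-β is a known inducer of these factors. The microRNAs of the miR-200 family repress ZEB1 and ZEB2, and the ZEB factors in turn repress the miR-200 genes.

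Libraries of replicate 3 resembled each other across the groups. After the mean of each group was subtracted, pairs of libraries that shared a replicate number correlated across genes with r from 0.349 to 0.431 (replicate 1), from 0.446 to 0.533 (replicate 2) and from 0.702 to 0.774 (replicate 3; 6 pairs each, with genes that are not independent). Because the mean was taken within each group, an offset in replicate 3 alone gives replicates 1 and 2 a shared offset of opposite sign. Correlations between unlike replicate numbers are not given here. The values for replicates 1 and 2 therefore cannot show that these libraries pair across groups. Replicate 3 also had the larger share of reads on mitochondrially encoded genes, 4.50 to 5.12% in its 4 libraries against 2.46 to 3.18% in the other 8. Of the EMT genes, SNAI1, SNAI2, ZEB1, VIM, CDH1 and FN1 were highest in replicate 3 in 4 of 4 groups. The mean FPKM of replicate 3 was 1.43 times that of replicates 1 and 2 for SNAI1, 1.52 times for SNAI2, 1.54 times for ZEB1, 1.44 times for VIM, 1.29 times for CDH1 and 1.24 times for FN1. EPCAM was the same in both, with a ratio of 1.01. The total that the deposited FPKM were divided by was 1.017 to 1.032 times the reads on genes in the 8 libraries of replicates 1 and 2 and 0.964 to 0.969 times in the 4 of replicate 3, so the same share of reads has a higher FPKM in replicate 3. The parts of this and of the mitochondrial share in these levels were not tested. Tests of the EMT genes are therefore given as fitted to the 4 groups, and beside it with the replicate number as a block, which compares libraries within a replicate. For genes of the lists some are given with the block alone, where the text says that none passed without it.

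Untreated HCT116 cells had the 2 epithelial genes far above the mesenchymal genes. In the control libraries the mean was 243 FPKM for EPCAM, 19.2 for CDH1, 11.7 for SNAI1, 3.25 for VIM, 1.36 for SNAI2, 1.30 for FN1, 0.369 for ZEB1 and 0.00235 for ZEB2. Neighbours in this order did not overlap over the 3 control libraries, with the exception of SNAI2 and FN1. By mean FPKM over all 12 libraries EPCAM ranked 124 of 25733 genes, CDH1 2702, SNAI1 3668, VIM 8994, SNAI2 11250, FN1 11909, ZEB1 14636 and ZEB2 25406. SNAI1 was thus the most abundant of the 4 measured EMT factors in every group. With NH4Cl alone its range overlapped that of CDH1 only across replicates, since CDH1 was the higher within each replicate. With both agents the ranges overlapped too, and in replicate 3 SNAI1 was at 20.0 FPKM against 19.0 for CDH1.

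**Figure D1:**
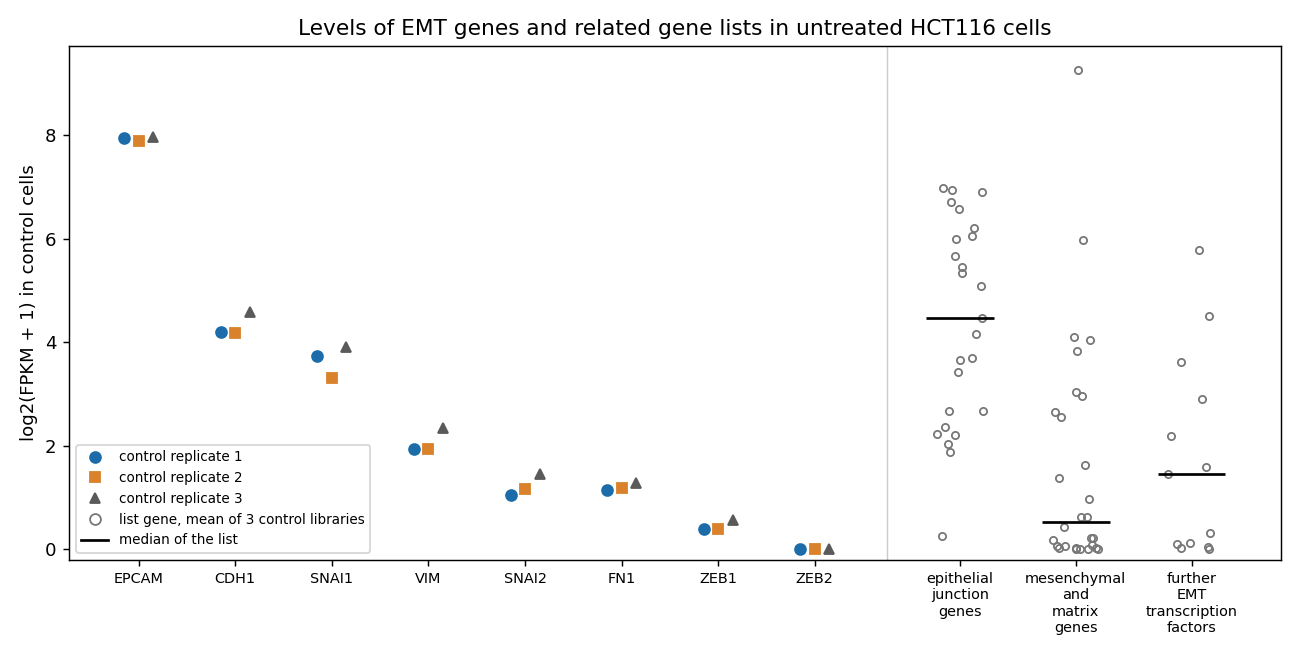
Level of each measured EMT gene in the 3 control libraries, as log2(FPKM + 1), beside 3 lists of related genes, each open circle being the control mean of 1 gene and each bar the median of the list. EPCAM is highest of the EMT genes and ZEB2 is near 0.

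The plot of control levels sets the EMT genes beside 3 lists of related genes. Most of the junction genes lie high, and most of the mesenchymal and matrix genes lie near 0. The highest circle among the matrix genes is S100A4, a calcium-binding protein linked to cell motility, at 607 FPKM over the 12 libraries.

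EPCAM encodes a homophilic adhesion molecule of the epithelial surface. It was at 244, 237 and 248 FPKM in the control libraries, 247, 238 and 229 with TGF-β, 253, 259 and 274 with NH4Cl, and 278, 269 and 267 with both. Every library with NH4Cl lay above every library without it, and the TGF-β libraries overlapped the controls. The group means were 243 ± 5.58 FPKM (SD, n = 3) in controls, 238 ± 8.995 with TGF-β, 262 ± 10.7 with NH4Cl and 272 ± 5.69 after both agents. Against TGF-β alone, both agents gave a log2 fold change of 0.19 (95% interval 0.07 to 0.31), which did not pass the test without the block (limma adjusted p = 0.146) and passed it with the block (limma adjusted p = 0.0108, higher in 3 of 3 replicates). With both agents against control it was 0.16, a rise of 11.8% (limma adjusted p = 0.221 without the block and 0.0232 with it, higher in 3 of 3 replicates). With NH4Cl alone it was 0.11, or 7.83% (limma adjusted p = 0.517 without the block and 0.1103 with it, higher in 3 of 3 replicates), and there limma-voom with the block passed (limma adjusted p = 0.0340). The call for both agents against control was lost without control replicate 1 (limma adjusted p = 0.0817), control replicate 2 (0.102), or replicate 1 or 2 of NH4Cl plus TGF-β (0.0767 and 0.0715), and with no filter on FPKM (0.0635), whereas the call against TGF-β held without any 1 of its 6 libraries and with no filter (0.0347). With replicates 1 and 2 alone both calls held (limma adjusted p = 0.0286 against control and 0.0310 against TGF-β with the block, higher in 2 of 2 replicates). In bulk RNA, fewer cells of a kind and less RNA per cell cannot be told apart, here and in the results that follow.

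CDH1 encodes E-cadherin, the adhesion receptor of the adherens junction. Its FPKM was 17.4, 17.2 and 23.1 in the control libraries, 17.7, 16.5 and 23.2 with TGF-β, 15.03, 16.5 and 19.3 with NH4Cl, and 14.9, 15.6 and 19.0 with both. Within each replicate the 2 libraries with NH4Cl lay below the 2 without it, except in replicate 2, where the NH4Cl library and the TGF-β library were level. Replicate 3 was high in each group, and the groups overlapped. The log2 fold change was -0.17 with NH4Cl alone (limma adjusted p = 0.805 without the block and 0.0538 with it, lower in 3 of 3 replicates), and there limma-voom with the block passed (limma adjusted p = 0.0225). With both agents CDH1 was lower than in controls by a log2 fold change of -0.20 (95% interval with the block -0.31 to -0.09), with a limma adjusted p = 0.663 without the block and 0.0210 with it, lower in 3 of 3 replicates. Against TGF-β alone the value was -0.19 (limma adjusted p = 0.678 without the block and 0.0253 with it, lower in 3 of 3 replicates). TGF-β alone gave -0.01. With the block, leaving out a library ended the call against control for control replicates 1 and 3 (limma adjusted p = 0.0708 and 0.0833) and for replicates 1 and 3 of NH4Cl plus TGF-β (0.0640 and 0.0743). It ended the call against TGF-β for the same replicates, 1 and 3, of TGF-β (limma adjusted p = 0.102 and 0.0878) and of both agents (0.0750 and 0.0843). With replicates 1 and 2 alone neither call held (limma adjusted p = 0.112 against control and 0.138 against TGF-β), and with no filter on FPKM only the first did (0.0469 and 0.0550). Leaving out NH4Cl replicate 2 brought NH4Cl alone past the threshold (log2 fold change -0.22, limma adjusted p = 0.0425), as did centring libraries on the median (0.0389). EPCAM and CDH1, both epithelial adhesion genes, thus moved in opposite directions with both agents, by the test with the block.

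**Figure D2:**
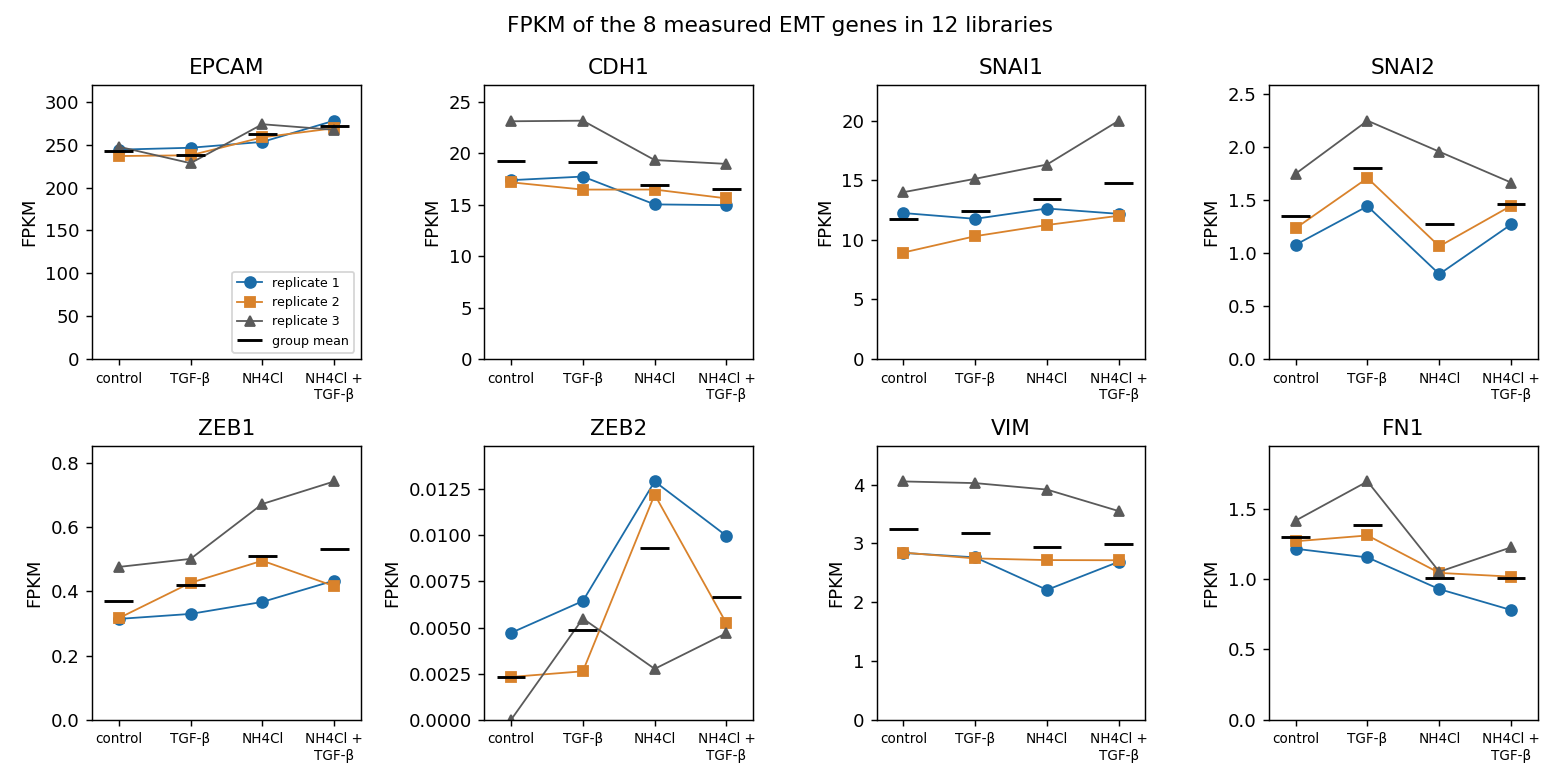
FPKM of the 8 measured EMT genes in each of the 12 libraries, by group, with lines joining libraries of the same replicate number and black bars at the group means. Replicate 3 runs above the others for 6 of the 8 genes, and EPCAM is higher in the 2 groups with NH4Cl.

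SNAI1 encodes Snail, a zinc finger repressor of CDH1. It was at 12.3, 8.94 and 14.0 FPKM in the control libraries, 11.8, 10.3 and 15.1 with TGF-β, 12.6, 11.3 and 16.3 with NH4Cl, and 12.2, 12.03 and 20.0 with both. The highest single library was replicate 3 of NH4Cl plus TGF-β, and the 4 groups overlapped. The log2 fold change with both agents against control was 0.29 (95% interval with the block 0.11 to 0.47), and SNAI1 was higher in 2 of 3 replicates, with replicate 1 at -0.01 (limma adjusted p = 0.669 without the block and 0.0311 with it). With NH4Cl alone it was 0.18 (limma adjusted p = 0.873 without the block and 0.157 with it, higher in 3 of 3 replicates), with TGF-β alone 0.08, and with both against TGF-β 0.21 (limma adjusted p = 0.779 without the block and 0.0924 with it, higher in 3 of 3 replicates). The call with the block was lost without control replicate 2 (limma adjusted p = 0.135), control replicate 3 (0.116), or replicate 2 or 3 of NH4Cl plus TGF-β (0.0967 and 0.1104), with replicates 1 and 2 alone (0.199) and with no filter on FPKM (0.0807). The comparison with TGF-β passed without replicate 1 of NH4Cl plus TGF-β (log2 fold change 0.31, limma adjusted p = 0.0203) and by limma-voom with the block (0.0466).

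SNAI2 encodes Slug, a relative of Snail that represses the same promoter. Its FPKM was 1.08, 1.24 and 1.75 in the control libraries, 1.44, 1.71 and 2.25 with TGF-β, 0.802, 1.06 and 1.96 with NH4Cl, and 1.27, 1.45 and 1.67 with both. In each replicate the TGF-β library was above its control, by 0.23, 0.28 and 0.24 on the log2(FPKM + 1) scale, and the groups overlapped. The log2 fold change with TGF-β was 0.25 (95% interval with the block 0.05 to 0.45), and it did not pass the test (limma adjusted p = 1.00 with and without the block, higher in 3 of 3 replicates). It was -0.07 with NH4Cl alone and 0.07 with both agents against control. Against TGF-β alone, both agents gave -0.18 (limma adjusted p = 0.765 without the block and 0.196 with it, lower in 3 of 3 replicates). None of these passed. SNAI2 rested on 42 to 111 reads a library.

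ZEB1 encodes a zinc finger and homeodomain repressor of epithelial genes. It was at 0.314, 0.316 and 0.476 FPKM in the control libraries, 0.330, 0.426 and 0.501 with TGF-β, 0.367, 0.495 and 0.672 with NH4Cl, and 0.433, 0.416 and 0.742 with both. The TGF-β library, the NH4Cl library and the library with both agents were each above the control in 3 of 3 replicates, and the groups overlapped. In ratios of group means this was 1.14 with TGF-β, 1.39 with NH4Cl and 1.44 after both agents. ZEB1 had 46 to 109 reads a library, which for the lowest gives a 95% Poisson interval of 33.7 to 61.4 reads for counting error alone. With no filter on FPKM and the replicate block, the log2 fold change of log2(FPKM + 1) with both agents was 0.16 (limma adjusted p = 0.157, higher in 3 of 3 replicates). On the recovered reads, limma-voom with the block gave 0.52 (limma adjusted p = 0.0433) with both agents and 0.47 (limma adjusted p = 0.0820) with NH4Cl alone. Reads of ZEB1 may include some of ZEB1-AS1, which overlaps it on the opposite strand at 1.34 FPKM, since counting by strand is not stated. VIM has such a neighbour too, VIM-AS1, at 0.0777 FPKM.

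ZEB2, a close relative of ZEB1, had 0 to 5 reads a library and 28 reads in all. These were 2, 1 and 0 reads in the control libraries, 3, 1 and 2 with TGF-β, 5, 5 and 1 with NH4Cl, and 4, 2 and 2 with both. A count of 0 allows up to 3 reads, or 0.00808 FPKM in control replicate 3, so differences between groups were not detectable at this depth.

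The ZEB genes are the known targets of the miR-200 family, whose seeds, bases 2 to 8, are in capitals in the 5 mature sequences from RefSeq (GRCh38.p14) printed here because they define the sites sought in the EMT genes.
hsa-miR-200b-3p: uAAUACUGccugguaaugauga
hsa-miR-200c-3p: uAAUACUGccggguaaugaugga
hsa-miR-429: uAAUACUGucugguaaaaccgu
hsa-miR-200a-3p: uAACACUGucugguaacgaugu
hsa-miR-141-3p: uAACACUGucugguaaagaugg
The first 3 share 1 seed and the other 2 share another. Their complements CAGTATT and CAGTGTT were counted in the longest annotated 3′ UTR of each of 19145 genes. ZEB1 had 9 matches, 6 of the first and 3 of the second, in 2549 bases, and ZEB2 had 9, 5 and 4, in 5370 bases. That many were found in 6 genes of all (0.0313%), whereas 28.2% of genes had any. Among genes with a UTR at least as long, 0.137% had as many as ZEB1 and 0.371% as many as ZEB2. FN1 had 2 matches, SNAI2 had 1, and SNAI1, VIM, CDH1 and EPCAM had 0 in the UTR searched. One match of each kind in ZEB1 and one in ZEB2 are shown with 10 bases on each side, the match in capitals, in GRCh38.
ZEB1 chr10:31527623-31527649, plus strand: tttatcttatCAGTATTatcactctta
ZEB1 chr10:31528036-31528062, plus strand: tcatcagaatCAGTGTTtgtgattgtg
ZEB2 chr2:144389043-144389069, minus strand: taccatacatCAGTATTtttattatta
A match is a description of the sequence and no measure of binding.

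Mature microRNAs were not analysed here, and longer RNA assigned to their loci rested on few reads. MIR200CHG, the transcript that spans the miR-200c and miR-141 hairpins, was at 2.70, 5.16 and 5.01 FPKM in the control libraries and 4.44, 5.07 and 3.16 with NH4Cl, on 16 to 43 reads a library, and its log2 fold change with NH4Cl was 0.00. The hairpin loci are 83 to 95 bases long, so few reads give a high FPKM, and the means over the 12 libraries were 20.1 FPKM for miR-429 on 16 to 47 reads a library, 11.3 for miR-200b on 6 to 36, 9.59 for miR-200a on 5 to 33 and 0.215 for miR-141 on 0 to 1. The locus of miR-200b, named after its values were seen, had 9, 8 and 17 reads in the control libraries and 15, 17 and 23 with NH4Cl. Its log2 fold change was 0.74 (limma adjusted p = 0.665 without the block and 0.0461 with it, higher in 3 of 3 replicates), and limma-voom with the block gave a limma adjusted p = 0.138. Its call was lost without any 1 of the libraries except NH4Cl replicate 3, with limma adjusted p from 0.0962 to 0.185, and with libraries scaled to the same sum (0.0525) a pseudocount of 0.1 (0.0513) or replicates 1 and 2 alone (0.0989), or no filter on FPKM (0.128). With both agents against control it was 0.83 (limma adjusted p = 0.533 without the block and 0.0245 with it, higher in 3 of 3 replicates), with limma adjusted p = 0.0581 by limma-voom with the block, and that call was lost without any 1 library but NH4Cl plus TGF-β replicate 1 (limma adjusted p from 0.0642 to 0.0936), with replicates 1 and 2 alone (0.101) and with no filter on FPKM (0.0768). The neighbouring locus of miR-200a gave -0.05 with NH4Cl and 0.53 with both agents (limma adjusted p = 0.735 without the block and 0.204 with it, higher in 3 of 3 replicates), and that of miR-429 gave -0.06 and 0.07, and none of these passed.

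VIM encodes vimentin, the intermediate filament of mesenchymal cells. It was at 2.84, 2.84 and 4.06 FPKM in the control libraries, 2.76, 2.75 and 4.03 with TGF-β, 2.21, 2.72 and 3.92 with NH4Cl, and 2.69, 2.71 and 3.55 with both. Each treated library lay under the control of its replicate, and the groups overlapped. The log2 fold change was -0.02 with TGF-β, -0.12 with NH4Cl (limma adjusted p = 0.918 without the block and 0.278 with it, lower in 3 of 3 replicates) and -0.09 with both (limma adjusted p = 0.906 without the block and 0.393 with it, lower in 3 of 3 replicates).

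FN1 encodes fibronectin, a matrix glycoprotein that mesenchymal cells secrete. It was at 1.21, 1.27 and 1.41 FPKM in the control libraries, 1.153, 1.31 and 1.69 with TGF-β, 0.928, 1.04 and 1.05 with NH4Cl, and 0.779, 1.02 and 1.22 with both. The 3 NH4Cl libraries lay below the 3 controls, and the libraries with both agents overlapped the controls and TGF-β. The mean with NH4Cl was 1.01 ± 0.0689 FPKM (SD, n = 3) against 1.30 ± 0.104 in controls, a ratio of 0.775. This gave a log2 fold change of -0.20 on the log2(FPKM + 1) scale, which did not pass the test (limma adjusted p = 0.561 without the block and 0.121 with it, lower in 3 of 3 replicates). With both agents against TGF-β alone it was -0.25 (limma adjusted p = 0.335 without the block and 0.0469 with it, lower in 3 of 3 replicates). That call was lost without any 1 of the 6 libraries (limma adjusted p from 0.0690 to 0.158), with libraries scaled to the same sum (0.0665), with a pseudocount of 0.1 (0.0553), with no filter on FPKM (0.0903) and with replicates 1 and 2 alone (0.142). Against control, both agents gave -0.20 (limma adjusted p = 0.471 without the block and 0.0964 with it, lower in 3 of 3 replicates). On the recovered reads, limma-voom with the block gave -0.36 for NH4Cl alone (limma adjusted p = 0.00870), -0.37 for both agents against control (limma adjusted p = 0.00491) and -0.45 for both agents against TGF-β (limma adjusted p = 0.000790).

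Without the block, limma called 0 of the 6 tested EMT genes in each of the 6 comparisons. The background over the 12341 genes was 0% for TGF-β against control (103 genes at an unadjusted p under 0.05), 0.381% for NH4Cl against control (1333), 0.948% for both agents against control (1618), 0% for both against NH4Cl (165), 1.03% for both against TGF-β (1642) and 0% for the interaction (115). At an unadjusted p under 0.05 there was 1 EMT gene for both agents against control, EPCAM, there were 2 against TGF-β, EPCAM and FN1, and 0 in the other 4 comparisons. Limma-voom on the recovered reads also called 0 without the block in each comparison, and the share of all genes that it called is not given here.

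With the replicate block, limma called 0 EMT genes for TGF-β against control (background 0.0081%, 1 gene), 0 for NH4Cl against control (13.6%), 3 for both agents against control (18.4%), 0 for both against NH4Cl (0.0081%), 3 for both against TGF-β (18.8%) and 0 for the interaction (0%). At an unadjusted p under 0.05 the block gave 1, 4, 4, 0, 4 and 0 of the 6 in the same order, against 422, 3585, 4053, 879, 4124 and 537 of all genes. Limma-voom with the block called 0, 3, 5, 0, 4 and 0 EMT genes in that order, with ZEB1 among the 15399 genes it tests, of which it called 0.0195%, 15.9%, 21.1%, 0.013%, 21.3% and 0.00649%. With both agents against control the calls were EPCAM and SNAI1 higher (background 10.7%) and CDH1 lower (7.77%). Against TGF-β they were EPCAM higher (10.3%) and CDH1 and FN1 lower (8.48%). For NH4Cl against control, where limma on log2(FPKM + 1) with the block called 0 EMT genes and limma-voom called 3, the background with the block on log2(FPKM + 1) was 7.42% higher and 6.14% lower. Without a filter on FPKM the block left 1 call against control, CDH1, and 1 against TGF-β, EPCAM, with 6.31% and 6.12% of all 25733 genes called, and called 0 for NH4Cl against control (4.36% of all genes). Leaving out any 1 of the 6 libraries left 1 of the 3 calls for both agents against control. Against TGF-β it left 2, EPCAM and CDH1, without TGF-β replicate 2 or NH4Cl plus TGF-β replicate 2, and EPCAM alone without any of the other 4, with SNAI1 newly called without NH4Cl plus TGF-β replicate 1. The share of all genes called with 1 library left out is not given here, so these counts have no background beside them.

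**Figure D3:**
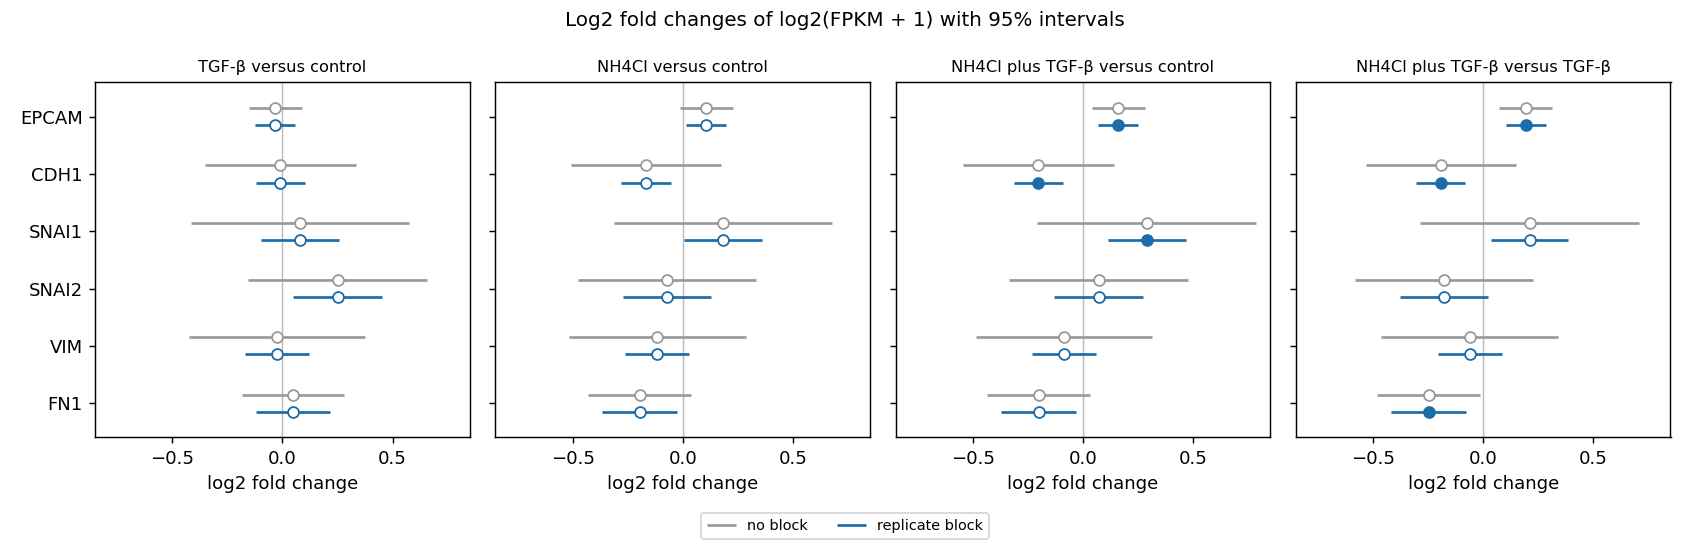
Log2 fold change of the 6 tested EMT genes in 4 comparisons, with 95% intervals, without a block (grey) and with the replicate block (blue); filled points passed the limma threshold of an adjusted p under 0.05. The block narrows the intervals at the same estimates, and the filled points are EPCAM, CDH1, SNAI1 and FN1 in the 2 comparisons at the right.

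In the plot of fold changes, on the log2(FPKM + 1) scale, the estimates are small, the largest being 0.29 for SNAI1 with both agents against control. On recovered reads, limma-voom with the block gave 0.32 there, against -0.45 for FN1 with both agents against TGF-β and 0.41 for SNAI2 with TGF-β. With 1 library left out the 0.29 of SNAI1 moved from 0.06 to 0.42 without the block and from 0.20 to 0.39 with it. SNAI2 with TGF-β moved from 0.14 to 0.37 without the block, and EPCAM with NH4Cl from 0.07 to 0.15 with the block. Without the block CDH1 ran from -0.26 to -0.03 with NH4Cl, from -0.30 to -0.07 with both agents against control and from -0.29 to -0.05 against TGF-β. In the same fits SNAI1 with NH4Cl ran from 0.02 to 0.31 and FN1 with both agents against control from -0.28 to -0.12. The intervals are widest without the block for SNAI1, SNAI2, VIM and CDH1, which with FN1 stand high in replicate 3. The interaction, which asks whether TGF-β acted differently in cells given NH4Cl, ranged from -0.11 for SNAI2 to 0.09 for EPCAM over the 6 genes, and none passed (limma adjusted p = 1.00 without the block and 0.992 with it for each).

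Early targets of TGF-β were looked at because the EMT factors lie downstream of the same pathway. Of 5 such genes limma called 0 without the block after 1 h of TGF-β (0 at an unadjusted p under 0.05), and 1 with it, as did limma-voom with the block, against 0.0081% and 0.0195% of all genes tested. This was ID1, an inhibitor of basic helix-loop-helix factors. ID1 was at 26.1, 22.9 and 46.6 FPKM in the control libraries and 45.4, 37.1 and 66.2 with TGF-β. The TGF-β library was the higher in each replicate, and the groups overlapped. Its log2 fold change was 0.65 (limma adjusted p = 1.00 without the block and 0.0248 with it, higher in 3 of 3 replicates), and after NH4Cl it was 0.62 (limma adjusted p = 1.00 without the block and 0.0342 with it, higher in 3 of 3 replicates). The call for TGF-β alone was lost without any 1 of its libraries except TGF-β replicate 3 (limma adjusted p from 0.127 to 0.296), and the call after NH4Cl without any 1 of its 6 (0.0767 to 0.281) and with libraries scaled to the same sum (0.0658). Both were lost with replicates 1 and 2 alone (limma adjusted p = 0.112 and 0.250) and with no filter on FPKM (0.251 and 0.186). The median log2 fold change of the 5 with TGF-β was 0.10, against 0.00 for all genes.

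For NH4Cl against control limma called 0 of these 5 early targets without the block (0 at an unadjusted p under 0.05), and with it 0 higher and 2 lower, against 7.42% and 6.14% of all genes (limma-voom with the block called 2, against 15.9%). ID1 was lower (log2 fold change -0.31, limma adjusted p = 0.0146, lower in 3 of 3 replicates), as was TGIF1, a corepressor of SMAD proteins (-0.16, limma adjusted p = 0.0278, lower in 3 of 3 replicates). The call of ID1 was lost without control replicate 2, control replicate 3 or NH4Cl replicate 2 (limma adjusted p = 0.0530, 0.0644 and 0.0666), and that of TGIF1 without any 1 of the 6 libraries (0.0630 to 0.115) and with replicates 1 and 2 alone (0.0808). The inhibitory SMAD gene SMAD7 gave -0.07, SKIL, which encodes the SMAD corepressor SnoN, gave 0.09, and CTGF, a matricellular growth factor, gave -0.04. With the block and 1 library left out they ran from -0.10 to -0.04, from 0.05 to 0.12 and from -0.16 to 0.11. With both agents against control limma called 0 of the 5 without the block (0 at an unadjusted p under 0.05). With the block it called 1 higher, ID1, and 0 lower, against 10.7% and 7.77% of all genes. Limma-voom with the block called 2, against 21.1%. The log2 fold change of ID1 was 0.32 (limma adjusted p = 0.796 without the block). With the block its call held without any 1 of the 6 libraries (limma adjusted p from 0.0173 to 0.0493). With both agents against TGF-β limma called 0 without the block (1 at an unadjusted p under 0.05, against 1642 of all 12341 genes). With the block it called 0 higher and 3 lower, against 10.3% and 8.48% of all genes (limma-voom with the block called 4, against 21.3%). These were ID1 (-0.33, limma adjusted p = 0.00807), SMAD7 (-0.16, limma adjusted p = 0.0347) and TGIF1 (-0.14, limma adjusted p = 0.0375), each lower in 3 of 3 replicates. The call of ID1 held without any 1 of the 6 libraries, that of SMAD7 was lost without any 1 (limma adjusted p from 0.0691 to 0.118), and that of TGIF1 without any 1 but NH4Cl plus TGF-β replicate 3 (0.0693 to 0.135). Scaling libraries to the same sum ended the calls of SMAD7 and TGIF1 (0.0627 and 0.0549), as did replicates 1 and 2 alone (0.122 and 0.0596) and no filter on FPKM (0.0575 and 0.0508).

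Other epithelial junction genes were measured beside CDH1. Of 25 listed, 24 were tested, and limma called 0 without the block in each comparison, where it called 0% to 1.03% of all genes. At an unadjusted p under 0.05 there were 4 for NH4Cl against control, against 1333 of all 12341 genes. With the block, NH4Cl against control gave 2 higher and 4 lower, against 7.42% and 6.14% of all genes (limma-voom with the block called 7 of the 25 it tests, against 15.9%), and both agents against control gave 4 higher and 5 lower, against 10.7% and 7.77% (limma-voom with the block called 11 of 25, against 21.1%). CLDN1, a tight junction claudin, was at 70.2, 69.6 and 55.5 FPKM in the control libraries and 45.0, 45.2 and 42.1 with NH4Cl, and these groups did not overlap. Its log2 fold change was -0.55 (limma adjusted p = 0.104 without the block and 0.000985 with it, lower in 3 of 3 replicates). CTNNB1, the β-catenin that binds the E-cadherin tail, was at 132.4, 129.7 and 114.5 FPKM in controls and 111.4, 109.7 and 101.9 with NH4Cl. Its log2 fold change was -0.22 (limma adjusted p = 0.303 without the block and 0.00187 with it, lower in 3 of 3 replicates), with no overlap of the groups. LSR, which organises tricellular tight junctions, was lower (-0.23, limma adjusted p = 0.00627 with the block, lower in 3 of 3 replicates), and so was CRB3, an apical polarity protein (-0.15, limma adjusted p = 0.0328 with the block, lower in 3 of 3 replicates). The claudin gene CLDN4, the most abundant of the list at 137 FPKM, was higher (0.24, limma adjusted p = 0.00934 with the block, higher in 3 of 3 replicates), as was CLDN3 (0.16, limma adjusted p = 0.0440 with the block, higher in 3 of 3 replicates). TJP3, which encodes the tight junction scaffold ZO-3, gave 0.29 and did not pass with NH4Cl alone (limma adjusted p = 0.0596 with the block, higher in 3 of 3 replicates), though it did without control replicate 3 (limma adjusted p = 0.0423), without NH4Cl replicate 3 (0.0433) and by limma-voom with the block (0.0343). With the block and 1 library left out its value ran from 0.18 to 0.37. The calls of CLDN1, CTNNB1 and LSR held without any 1 of the 6 libraries. That of CLDN4 was lost without control replicate 2 (limma adjusted p = 0.0513), that of CLDN3 without any 1 of the 6 (0.0628 to 0.168), and that of CRB3 without any 1 except NH4Cl replicate 2 (0.0515 to 0.143). Scaling libraries to the same sum also ended the call of CRB3 (limma adjusted p = 0.0608), centring them on the median that of CLDN3 (0.0664), and replicates 1 and 2 alone those of CLDN4, CLDN3 and CRB3 (0.0636, 0.172 and 0.147). With no filter on FPKM those of CLDN3 and CRB3 were lost (0.0879 and 0.0514). The median of the 24 was 0.00, as was that of all genes.

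With both agents against control, the junction genes called with the block were CLDN4, CLDN3, TJP3 and PKP2 higher, by log2 fold changes of 0.35, 0.20, 0.41 and 0.14, and CLDN1, DSC2, CTNNB1, TJP1 and LSR lower, by -0.62, -0.30, -0.21, -0.20 and -0.18. None of the 9 passed without the block (limma adjusted p from 0.0501 to 0.668). PKP2 and DSC2 encode desmosomal proteins, and TJP1 encodes ZO-1. Each held its direction in 3 of 3 replicates. Leaving out 1 library ended the call of PKP2 for each library but NH4Cl plus TGF-β replicate 1 (limma adjusted p from 0.0982 to 0.158) as did both scalings (0.0853 and 0.0592), of DSC2, LSR and CLDN3 for 1 control library each, replicates 2, 2 and 3 (0.0611, 0.0583 and 0.0553), and of TJP1 for control replicates 1 and 2 and for replicates 1 and 3 of both agents (0.0538 to 0.1004). With replicates 1 and 2 alone the calls of PKP2 and CLDN3 were lost (limma adjusted p = 0.178 and 0.0960), and with no filter on FPKM that of PKP2 (0.0796).

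**Figure D4:**
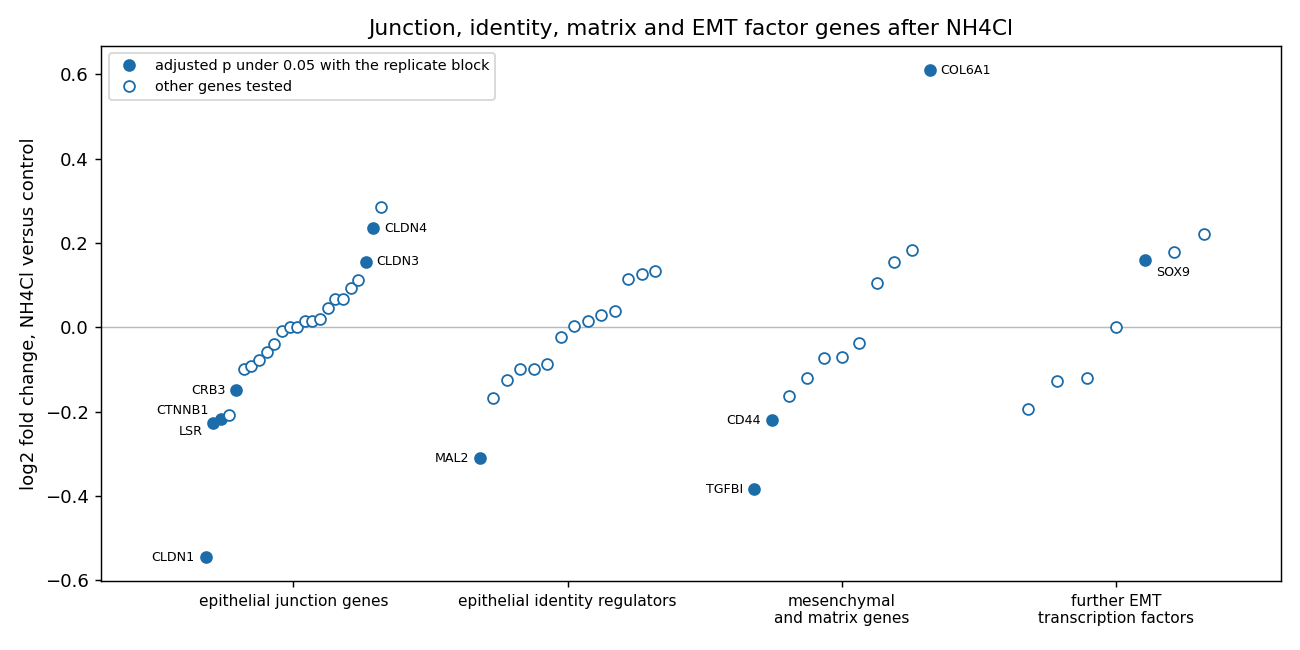
Log2 fold change with NH4Cl against control of each tested gene in 4 lists, ordered within its list, with filled points for genes past the limma threshold with the replicate block. Each of the junction and matrix lists has filled points on both sides of 0.

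The plot of the 4 lists shows genes of the junction and matrix lists moving both ways with NH4Cl. Of 19 regulators of epithelial identity 14 were tested, and for NH4Cl against control limma called 0 without the block (0 at an unadjusted p under 0.05). At an unadjusted p under 0.05 the block gave 6 in both directions, against 3585 of all 12341 genes. Limma-voom with the block called 5 of the 16 it tests, against 15.9%. With the block limma called 0 higher and 1 lower, against 7.42% and 6.14% of all genes. This was MAL2, an apical trafficking protein (-0.31, limma adjusted p = 0.0424 with the block, lower in 3 of 3 replicates), whose call was lost without any 1 of the 6 libraries (limma adjusted p from 0.0719 to 0.150) with libraries scaled to the same sum (0.0550), with replicates 1 and 2 alone (0.142) and with no filter on FPKM (0.106). The ETS factor gene EHF gave -0.17, the zinc finger factor gene KLF5 gave -0.13 and OVOL2, a repressor of EMT factors, gave 0.13. With the block and 1 library left out they ran from -0.23 to -0.10, from -0.18 to -0.09 and from 0.07 to 0.23. With all libraries none of these genes passed. Without control replicate 3 both KLF5 and OVOL2 did (limma adjusted p = 0.0428 and 0.0444), with log2 fold changes of -0.18 and 0.23, as they did with replicates 1 and 2 alone (0.0462 and 0.0320). With both agents against control the block gave 2 higher and 1 lower of the 14, against 10.7% and 7.77% of all genes. Limma-voom with the block called 6 of the 16 it tests, against 21.1%. KLF5, the most abundant at 154 FPKM, was the 1 lower (-0.18, limma adjusted p = 0.0265 with the block, lower in 3 of 3 replicates). Another ETS factor gene, ELF3 (0.21, limma adjusted p = 0.00496) and the protease inhibitor gene SPINT2 (0.26, limma adjusted p = 0.00202) were higher, each in 3 of 3 replicates. Without the block none of these 3 passed (limma adjusted p = 0.824, 0.771 and 0.174). KLF5 was lost without control replicate 1 or 2 or replicate 1 or 2 of both agents (limma adjusted p from 0.0751 to 0.120) with libraries scaled to the same sum (0.0502) and with no filter on FPKM (0.0672).

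Of 29 mesenchymal and matrix genes 28 were in the table and 11 were tested, so most were too low to test. COL6A1, a chain of collagen VI, passed without the block, 1 of the 11 for NH4Cl and 1 for both agents against control, where 0.381% and 0.948% of all genes did. It was at 6.36, 6.28 and 7.58 FPKM in the control libraries, 6.22, 6.04 and 6.68 with TGF-β, 9.98, 11.5 and 10.8 with NH4Cl, and 10.3, 10.5 and 12.7 with both. All 6 libraries with NH4Cl lay above all 6 without it. Its log2 fold change was 0.61 with NH4Cl (limma adjusted p = 0.0328 without the block and 0.000556 with it, higher in 3 of 3 replicates) and 0.65 with both agents against control (limma adjusted p = 0.0170 without the block, higher in 3 of 3 replicates). With the block, NH4Cl gave 1 higher, COL6A1, and 2 lower, against 7.42% and 6.14% of all genes (limma-voom with the block called 6 of the 18 it tests, against 15.9%). The 2 lower were TGFBI, a matrix protein induced by TGF-β (-0.38, limma adjusted p = 0.0593 without the block and 0.00460 with it, lower in 3 of 3 replicates), and CD44, the hyaluronan receptor (-0.22, limma adjusted p = 0.297 without the block and 0.0232 with it, lower in 3 of 3 replicates). The call of CD44 was lost without control replicate 1 or 2 or NH4Cl replicate 1 or 2 (limma adjusted p from 0.0693 to 0.0970), and the other 2 held without any 1 of the 6 libraries. The small matrix proteoglycan gene LUM gave 0.18 and did not pass (limma adjusted p = 0.386 without the block and 0.0672 with it, higher in 3 of 3 replicates), though it did with the block without control replicate 3 (limma adjusted p = 0.0270) and with replicates 1 and 2 alone (0.0499). Both agents against TGF-β with the block gave 1 higher, COL6A1, and 3 lower, against 10.3% and 8.48% of all genes (limma-voom with the block called 9 of the 18 it tests, against 21.3%). The 3 lower were TGFBI (-0.31, limma adjusted p = 0.0835 without the block and 0.00932 with it, lower in 3 of 3 replicates), AXL, a receptor tyrosine kinase (-0.27, limma adjusted p = 0.401 without the block and 0.0354 with it, lower in 3 of 3 replicates), and MMP14, a membrane-bound metalloprotease (-0.19, limma adjusted p = 0.711 without the block and 0.0258 with it, lower in 3 of 3 replicates). The call of AXL was lost without any 1 library but NH4Cl plus TGF-β replicate 2 (limma adjusted p from 0.0676 to 0.129), and that of MMP14 without replicate 2 or 3 of TGF-β or of both agents (0.0550 to 0.101). That of TGFBI held without any 1 of the 6, and with replicates 1 and 2 alone the calls of TGFBI, AXL and MMP14 were all lost (0.0624, 0.184 and 0.0643). With no filter on FPKM the calls of CD44 with NH4Cl and of AXL and MMP14 here were lost (0.0523, 0.0898 and 0.0527). The median of the 11 with NH4Cl was -0.07, against 0.00 for all genes.

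Of 14 further EMT factors 13 were in the table and 7 were tested. For NH4Cl against control limma called 0 without the block (1 at an unadjusted p under 0.05, against 1333 of all 12341 genes). At an unadjusted p under 0.05 the block gave 5 in both directions, against 3585 of all 12341 genes. Limma-voom with the block called 2 of the 10 it tests, against 15.9%. With the block NH4Cl gave 1 higher and 0 lower, against 7.42% and 6.14% of all genes. The 1 was SOX9, the most abundant of the list (0.16, limma adjusted p = 0.0251, higher in 3 of 3 replicates), whose call was lost without any 1 library but NH4Cl replicate 3 (limma adjusted p from 0.0754 to 0.114) and with no filter on FPKM (0.0502). With both agents against control the block gave 2 higher and 0 lower of the 7, against 10.7% and 7.77% of all genes (limma-voom with the block called 4 of 10, against 21.1%). These were SNAI3, the third SNAI gene, by 0.44 (limma adjusted p = 0.403 without the block and 0.00326 with it), and the forkhead factor gene FOXC1, by 0.34 (limma adjusted p = 0.728 without the block and 0.0108 with it), each higher in 3 of 3 replicates. FOXC1 was lost without control replicate 1 (limma adjusted p = 0.0555). With NH4Cl alone FOXC1 gave 0.22, SNAI3 0.18 and ID2, a relative of ID1, -0.19, and none passed, though ID2 did without NH4Cl replicate 3 (-0.28, limma adjusted p = 0.0321). The median of the 7 with NH4Cl was 0.00.

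Markers of cell types were read as a check on the label. HCT116 had simple epithelial keratins, KRT8 at 860 and KRT18 at 876 FPKM, and 8 of 10 colon epithelial markers had a mean of at least 1, while KRT20 was at 0.190 and CEACAM5 at 0.0956. This list of 10 includes the keratins KRT8, KRT18 and KRT19. The summed level of the list was 2272, 2170 and 3065 FPKM in the control libraries, 2250, 2188 and 3185 with TGF-β, 2023, 2041 and 2622 with NH4Cl, and 2210, 2099 and 2748 with both, highest in replicate 3 of each group. The sum was mostly these keratins, at 807.8, 794 and 562.6 FPKM in control replicate 1. The highest of the other markers was VIL1, at 90.3 FPKM over the 12 libraries. With the block, NH4Cl gave KRT19 lower (-0.39, limma adjusted p = 0.000131, lower in 3 of 3 replicates) and the microvillus protein gene VIL1 higher (0.18, limma adjusted p = 0.0382, higher in 3 of 3 replicates), and limma called 0 without the block (1 at an unadjusted p under 0.05, against 1333 of all 12341 genes). These 2 of 8 stand against 13.6% of all genes (limma-voom with the block called 3, against 15.9%). VIL1 was lost without any 1 library but NH4Cl replicate 3 (limma adjusted p from 0.0772 to 0.157) under both scalings (0.0594 and 0.0556) and with no filter on FPKM (0.0903). CDX1 gave 0.18 and LGALS4 -0.17, and neither passed. Leaving out 1 library moved them from 0.06 to 0.33 and from -0.30 to -0.01, and with replicates 1 and 2 alone CDX1 passed (0.38, limma adjusted p = 0.0345). With both agents and the block, KRT19 was lower against control and against TGF-β (-0.29 in each). It was the 1 called of 8 in each, where 7.77% and 8.48% of all genes were called lower. Without the block neither passed (limma adjusted p = 0.615 and 0.603).

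Most markers of other cells were low, and the highest were LUM at 7.79 and VWF at 3.01 FPKM over the 12 libraries. Of 9 fibroblast markers 7 had a mean under 1 FPKM, with DCN at 0.0208, COL1A2 at 0.00653 and FAP at 0.00385, and the sum of 8.04 to 11.3 FPKM a library was mostly LUM. Of 6 leukocyte markers 4 were in the table and 1, LYZ, had a mean of at least 1, with a sum of 0.881 to 2.95 FPKM. Limma called 0 of both lists in each comparison, with and without the block. At an unadjusted p under 0.05 there was 1 of the 2 fibroblast genes tested for NH4Cl against control, without the block (1333 of all 12341 genes) and with it (3585). With the block there was also 1 for both agents against control (4053 of all genes) and 1 against TGF-β (4124). Limma-voom with the block called 1 of the 3 fibroblast genes it tests, for both agents against TGF-β, against 21.3% of all genes. Of 5 endothelial markers PECAM1, CDH5 and KDR were at 0.0348, 0.240 and 0.0160 FPKM, while the other 2, the 2 tested, were higher with NH4Cl in the test with the block, against 7.42% of all genes. These were VWF by 0.46 (limma adjusted p = 0.799 without the block and 0.00423 with it, higher in 3 of 3 replicates) and CLDN5 by 0.60 (limma adjusted p = 0.306 without the block and 0.00341 with it, higher in 3 of 3 replicates). CLDN5 had a mean of 0.628 FPKM in controls and 1.44 with NH4Cl, and thus reached a mean of 1 over the 12 libraries through the groups given NH4Cl; with no filter on FPKM its limma adjusted p with the block was 0.0125. VWF and CLDN5 were also called higher with both agents and the block, where 10.7% and 10.3% of all genes were. VWF gave 0.47 against control and 0.52 against TGF-β, and CLDN5 gave 0.84 and 0.79. Without the block none of these passed (limma adjusted p from 0.114 to 0.724). The endothelial sum was 2.15, 2.24 and 5.35 FPKM in the control libraries, 2.51, 2.08 and 5.24 with TGF-β, 3.98, 4.05 and 7.85 with NH4Cl, and 4.18, 4.42 and 9.35 with both. The part of these markers in the EMT gene values was not tested. The matrix and fibroblast lists share 8 genes.

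The genes whose levels ran most like those of 3 members were sought among 4611 genes with a mean of at least 10 FPKM, by Pearson correlation of log2(FPKM + 1) over the 12 libraries, as a description. For CDH1 they were HYOU1 (0.98), AKAP12 (0.979) and PDIA4 (0.975), and after the mean of each replicate number was subtracted LBH (0.981), NCLN (0.946) and AKAP12 (0.946). EPCAM ran with SLC25A5 (0.952), TCEAL9 (0.942) and GHITM (0.93), and after subtraction with MTFR1 (0.995), CYCS (0.969) and VDAC2 (0.968). VIM ran with TAX1BP1 (0.98), GBE1 (0.966) and EIF3H (0.961), and after subtraction with TMEM126A (0.957), TAX1BP1 (0.934) and AREG (0.922). Of the 3 genes named for each, CDH1 and VIM kept 1 after the subtraction and EPCAM kept 0, and the libraries share the replicate structure described above.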

How the data were processed

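The authors trimmed reads with Trimmomatic 0.36, aligned them to GRCh38 with STAR 2.5.2b, counted them per gene and deposited FPKM for 12 libraries made from 1 µg of RNA each. The labels name featureCounts of Subread 1.5.2 and the methods name another counter. Multiplied by the GENCODE 29 exon length and 1 scale per library, the deposited FPKM gave whole reads for 100% of values within 0.01. Genes reaching a mean of 1 FPKM were tested as log2(FPKM + 1) with limma 3.58.1 in R 4.3.3, as contrasts of the 4 group means with an intensity trend, two-sided, Benjamini-Hochberg adjusted over all genes tested, with a threshold of 0.05. Figures and tables used Python 3.11.15, pandas 2.3.3, numpy 2.4.6, scipy 1.17.1 and matplotlib 3.10.9. The fit was tested on simulated data, with an outcome that is not given here. Libraries of the same replicate number were checked for likeness over 6 pairs per number. Members and gene lists were chosen with earlier results of these data known. Of the listed genes 3 are not reported here and were taken out of the lists, while the fits and adjusted p-values still cover the whole table. Genes named were all members; in each list those past the threshold, the 4 with the largest change with NH4Cl and the most abundant; every early TGF-β target; and 3 genes most like CDH1, EPCAM and VIM. Alternatives were another pseudocount, filter or scaling, only the groups compared, no trend, the replicate block, replicates 1 and 2 only, and each library left out in turn. Limma-voom on recovered reads of genes with a mean of at least 10, the block with no filter, another pseudocount or each scaling, and the alternatives for lists were chosen after seeing the data.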

Additional observations from a re-analysis of the deposited data

How the results depend on the processing

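Without the replicate block, the count of EMT genes past the threshold was 0 in each of the 6 comparisons under every alternative without a block that was run: both scalings, a pseudocount of 0.1, no filter or a mean FPKM of at least 5, no intensity trend, only the groups compared, limma-voom on recovered reads, and each library left out. The block gave 3 for both agents against control and 3 against TGF-β, against 18.4% and 18.8% of all genes. The block with no filter on FPKM gave 1 and 1, against 6.31% and 6.12% of all genes called by that fit, and with limma-voom 5 and 4, against 21.1% and 21.3%, and 3 for NH4Cl against control, against 15.9%. With the block, replicates 1 and 2 alone gave 1 against control and 1 against TGF-β, and centring each library on its median gave 1 for NH4Cl against control. Leaving out a library with the block gave 0 to 1 for NH4Cl against control, 1 in every case for both agents against control and 1 to 2 against TGF-β. The share of all genes called is not given here for these fits or for the alternatives without a block. Their counts therefore have no background beside them. Without the block, directions of log2 fold changes that did not pass turned when 1 library was left out. With TGF-β the range was -0.17 to 0.11 for VIM, -0.15 to 0.12 for CDH1, -0.043 to 0.12 for FN1 and -0.089 to 0.21 for SNAI1. With NH4Cl it was -0.28 to 0.080 for SNAI2 and -0.29 to 0.022 for VIM. With both against control it was -0.014 to 0.19 for SNAI2 and -0.19 to 0.046 for VIM, and against TGF-β -0.0165 to 0.35 for SNAI1. With the block, SNAI2 ranged from -0.18 to 0.0015 and CTGF from -0.16 to 0.11 with NH4Cl, and replicates 1 and 2 alone gave CTGF 0.11. Of the gene values with the block, under replicates 1 and 2 alone, both scalings, the pseudocount, no block and each library left out, but not limma-voom or no filter, 739 kept direction and side of the threshold, 250 lost the threshold, 13 gained it and 5 turned; of those without it, 329 kept both, 19 gained the threshold, each only where the block was added, and 16 turned. The causes were not tested. The median of all genes moved by less than 0.02 on the log2 scale under either scaling. Leaving out a library leaves 2 in its group, whose spread is assumed like that of the other groups. ZEB2, at 0 to 5 reads, is beyond the depth of these libraries, and intervals on reads cover counting error alone.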
